A study of Rattus norvegicus with 6 samples.

Results

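The 8 genes described here belong to actin-based cell protrusions and were measured in cultured rat oligodendrocyte precursor cells (OPCs) treated with the RIPK1 inhibitor ZJU-37 or its solvent DMSO. These were the scaffolds Sh3pxd2a and Sh3pxd2b, the kinase Pak4 and its inhibitor Inka2, the actin regulators Cttn, Wasl and Fscn1, and the tyrosine kinase Src. They were picked by gene name, with Sh3pxd2a and Inka2 included because both were already known to be much higher with ZJU-37 in these libraries. The 8 names matched 9 of the 32883 entries of the deposited gene table, because Cttn is listed in 2 places, and 8 of the 9 entries passed the filter on low counts. Since the difference between the treatments entered the choice, the members' values below are a description and carry no test.

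OPCs were purified by shaking from cortical cultures of Sprague Dawley rats taken at postnatal day 0, with the cortices of 2 rats per culture according to the methods, and no genetic change is given for either group. One group received 5 µM ZJU-37 and the other an equal volume of DMSO for 36 h according to the labels, whereas the methods text gives a shorter time for the RNA-seq. Each group had 3 libraries of poly-A RNA, named replicates 1 to 3, with 13935865 to 18754529 counts per library for DMSO and 17769843 to 24097927 for ZJU-37. The methods call the replicates biological and a figure legend calls them plate wells, so the p-values below measure the spread between these libraries, which may be technical. ZJU-37 is described in the study as Nec-1s modified by an amide bond.

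Invadopodia and podosomes are actin-rich protrusions of the cell surface that hold proteases and cut through extracellular matrix. Src starts their assembly by phosphorylating the scaffolds TKS5 (Sh3pxd2a) and TKS4 (Sh3pxd2b), which gather cortactin (Cttn) and N-WASP (Wasl) so that the Arp2/3 complex branches actin, while fascin (Fscn1) bundles the filaments. PAK4 (Pak4) is a kinase that acts downstream of Cdc42 on the actin cytoskeleton, and INKA2 (Inka2) binds and inhibits it. OPCs move and extend processes through the brain before they differentiate, which depends on actin remodelling.

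The cultures were first compared with markers of the cell types they could hold. All 8 OPC markers found in the table were detected, with a summed level of 4237 to 4965 CPM in DMSO and 4556 to 6288 CPM in ZJU-37 libraries (CPM are counts scaled to library size by TMM). The 9 oligodendrocyte markers summed to 22747, 16275 and 11447 CPM in DMSO replicates 1, 2 and 3 and to 8681, 10037 and 4807 CPM in ZJU-37 replicates 1, 2 and 3, so that every ZJU-37 library lay below every DMSO library. The 12 microglia markers were all detected and summed to 2458 to 4243 CPM in DMSO and 1781 to 3710 CPM in ZJU-37 libraries, lowest in replicate 1 of either group. The 10 astrocyte markers summed to 977 to 1607 CPM in DMSO and 886 to 1336 CPM in ZJU-37 libraries, and the 10 neuron markers to 267 to 435 CPM and 267 to 370 CPM. The fibroblast and mural markers reached at most 114 CPM, and of the 5 endothelial markers in the table, which reached at most 18.7 CPM, Cldn5 had no count in any library. Of the tested markers, edgeR called 4 OPC markers higher and 3 lower, 2 oligodendrocyte markers lower, 1 astrocyte and 1 neuron marker higher, and 0 microglia, 0 fibroblast and mural and 0 endothelial markers (0 of each at an unadjusted p under 0.05, and 0 in DESeq2). With the replicate number as a block it called 6 oligodendrocyte, 5 microglia, 4 astrocyte, 4 neuron, 1 fibroblast and mural and 1 endothelial marker lower, and the other counts stayed as they were. The microglia, astrocyte, fibroblast and mural, and endothelial sums were lower with ZJU-37 in each of the 3 pairs of like-numbered replicates. The low endothelial sums did not overlap between the groups either, with 15.9 to 18.7 CPM in DMSO and 11.2 to 14.9 CPM in ZJU-37 libraries. In bulk RNA of such cultures, fewer cells of a type and less RNA per cell cannot be told apart.

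**Figure D1:**
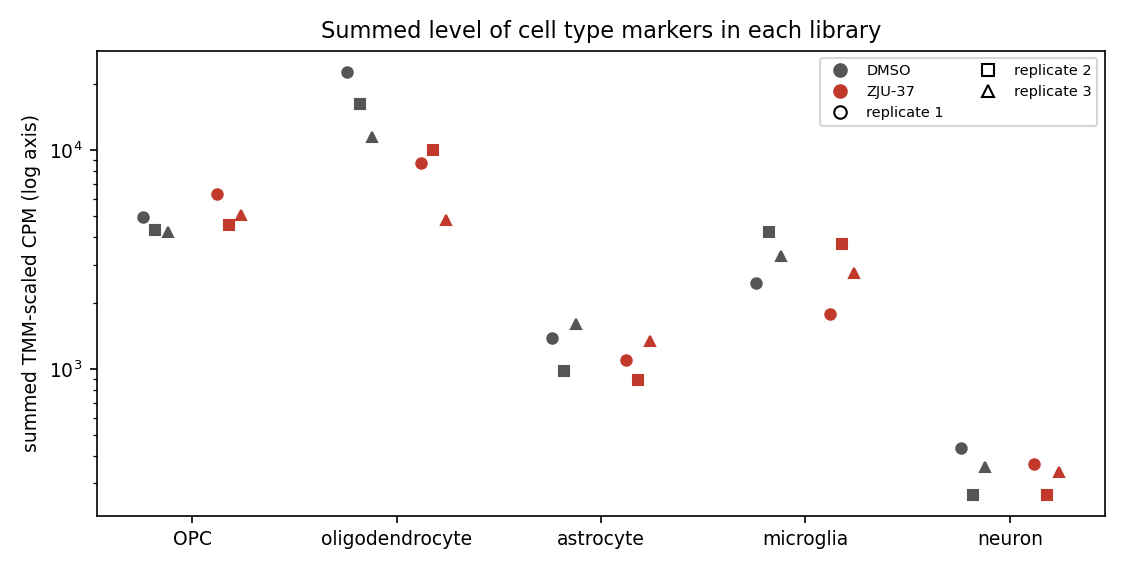
Summed TMM-scaled CPM (log axis) of the marker genes of 5 cell types in the 3 DMSO (grey) and 3 ZJU-37 (red) libraries, with the symbol giving the replicate number. The oligodendrocyte markers are lower in each ZJU-37 library than in each DMSO library, whereas the DMSO and ZJU-37 points of the other 4 cell types overlap.

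Promoter sequences are shown for 3 members. Inka2 and Src are members with higher levels with ZJU-37, and Fscn1 is the member with the most motif matches. The set of promoter sequences used here held 7 of the 8 members and not Sh3pxd2a. The printed sequences are the 250 bases before the annotated start in RefSeq (build GRCr8). They lie at chr2:195873367-195873616 on the plus strand for Inka2, at chr3:166544438-166544687 on the plus strand for Src and at chr12:16723735-16723984 on the minus strand for Fscn1. Capitals mark the motif matches.
Inka2: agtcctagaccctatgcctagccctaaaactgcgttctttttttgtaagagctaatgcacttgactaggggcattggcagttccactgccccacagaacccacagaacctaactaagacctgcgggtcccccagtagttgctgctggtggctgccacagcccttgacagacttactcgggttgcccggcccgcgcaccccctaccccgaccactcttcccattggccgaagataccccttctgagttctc
Src: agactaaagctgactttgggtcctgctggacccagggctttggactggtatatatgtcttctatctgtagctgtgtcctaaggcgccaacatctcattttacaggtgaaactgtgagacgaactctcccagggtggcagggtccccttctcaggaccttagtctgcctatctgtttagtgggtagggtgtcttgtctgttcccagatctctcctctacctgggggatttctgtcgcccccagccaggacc
Fscn1: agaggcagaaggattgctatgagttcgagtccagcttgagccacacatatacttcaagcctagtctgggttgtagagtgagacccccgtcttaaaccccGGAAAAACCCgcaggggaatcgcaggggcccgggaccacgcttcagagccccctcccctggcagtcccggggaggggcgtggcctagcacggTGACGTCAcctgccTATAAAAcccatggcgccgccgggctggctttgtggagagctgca
The 7 promoters were searched on both strands for 9 motifs, and none matched in Inka2, Src or Pak4. The motifs of inducible factors were NF-κB, searched by its consensus, AP-1 with the letters TGANTCA, and the cAMP response element CRE with the letters TGACGTCA. The core promoter motif was the TATA box, searched as TATAAAA. Further motifs were the E-box, which reads CACGTG, the site of E2F factors, which reads TTTCGCG, the XRE of the aryl hydrocarbon receptor, which reads TTGCGTG, the site of ETS factors, which reads CCGGAAG, and the CArG box of SRF. Fscn1 held a match to NF-κB at 151 bases, to CRE at 59 bases and to TATA at 45 bases before the start, and these motifs occurred in 4.36%, 1.59% and 5.38% of all 33469 promoters. Sh3pxd2b held 1 NF-κB match at 249 bases, Cttn 1 XRE match at 38 bases and Wasl 1 ETS match at 96 bases before the start, against 0.983% of all promoters for XRE and 7.27% for ETS. The motifs of AP-1, the E-box, E2F and SRF, with no match in a member, were in 6.34%, 5.59%, 0.651% and 1.5% of all promoters. A match is a run of letters and not a known binding site.

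Sh3pxd2a differed more between the groups than the other scaffold gene. Sh3pxd2a, which encodes TKS5, has its minus-strand entry at chr1:267046361-267245636 (the build is not given in the sources used here). It measured 43.4, 46.0 and 46.2 CPM under DMSO (replicates 1 to 3 in order) against 164, 149 and 155 CPM under ZJU-37. The groups were far apart, and the libraries within each group were close together. Mean levels came to 45.2 ± 1.59 and 156 ± 7.62 CPM (SD, n = 3 each), a ratio of 3.46 and a fitted log2 change (log2 of ZJU-37 over DMSO, from edgeR) of 1.79 with a standard error of 0.06. The log2 differences within the pairs of replicates 1, 2 and 3 were 1.92, 1.70 and 1.74. By log2 change it ranked 61st from the top of 14670 tested genes.

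Sh3pxd2b, which encodes the related scaffold TKS4, has its plus-strand entry at chr10:17209212-17291876. It measured 49.1, 43.1 and 46.6 CPM under DMSO (replicates 1 to 3 in order) against 54.3, 65.0 and 61.2 CPM under ZJU-37. All ZJU-37 libraries were above all DMSO libraries, but the nearest values, both of replicate 1, were close. The ratio of the means was 1.30, with a log2 change of 0.38 (standard error 0.09), and the pairs gave 0.15, 0.59 and 0.39.

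Levels of the scaffolds were compared per length with the FPKM values of the authors' table. Sh3pxd2a over Sh3pxd2b was 0.662, 0.798 and 0.742 in DMSO replicates 1, 2 and 3, and 2.26, 1.72 and 1.89 in ZJU-37 replicates 1, 2 and 3. Per length, Sh3pxd2b was thus the higher scaffold transcript in every DMSO library, and Sh3pxd2a in every ZJU-37 library. The order in DMSO rests on the annotated lengths, 3678 bases for Sh3pxd2a and 2753 for Sh3pxd2b. In CPM the DMSO means were close, at 45.2 for Sh3pxd2a and 46.3 for Sh3pxd2b. In DMSO replicate 2 Sh3pxd2a had the higher CPM, 46.0 against 43.1. The mean ratio was 0.734 ± 0.0688 with DMSO and 1.96 ± 0.278 with ZJU-37 (SD, n = 3 each).

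Inka2, the inhibitor of PAK4, has its plus-strand entry at chr2:208170652-208185965, and its promoter is the first of those printed above. It measured 54.6, 51.4 and 48.8 CPM under DMSO (replicates 1 to 3 in order) against 176, 158 and 168 CPM under ZJU-37. The groups did not overlap and lay further apart than any libraries of 1 group. Mean levels came to 51.6 ± 2.93 and 167 ± 8.89 CPM (SD, n = 3 each), a ratio of 3.24 and a log2 change of 1.70 (standard error 0.07), ranked 78th from the top. The pair differences were 1.68, 1.62 and 1.78.

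Pak4, the kinase that INKA2 inhibits, has its plus-strand entry at chr1:85162452-85201757. It measured 34.3, 35.1 and 35.4 CPM under DMSO (replicates 1 to 3 in order) against 46.0, 42.1 and 44.3 CPM under ZJU-37. No DMSO library reached any ZJU-37 library, by a ratio of the means of 1.26 and a log2 change of 0.34 (standard error 0.06). Per length, Inka2 over Pak4 was 1.88, 1.73 and 1.63 in DMSO and 4.51, 4.43 and 4.49 in ZJU-37 replicates 1, 2 and 3, so that the inhibitor's transcript exceeded that of the kinase in all 6 libraries and by more with ZJU-37. The ratio of Inka2 to Sh3pxd2a, the members with the highest log2 changes, was nearly the same in both groups, 1.24 ± 0.114 with DMSO and 1.16 ± 0.0165 with ZJU-37 (SD, n = 3 each).

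**Figure D2:**
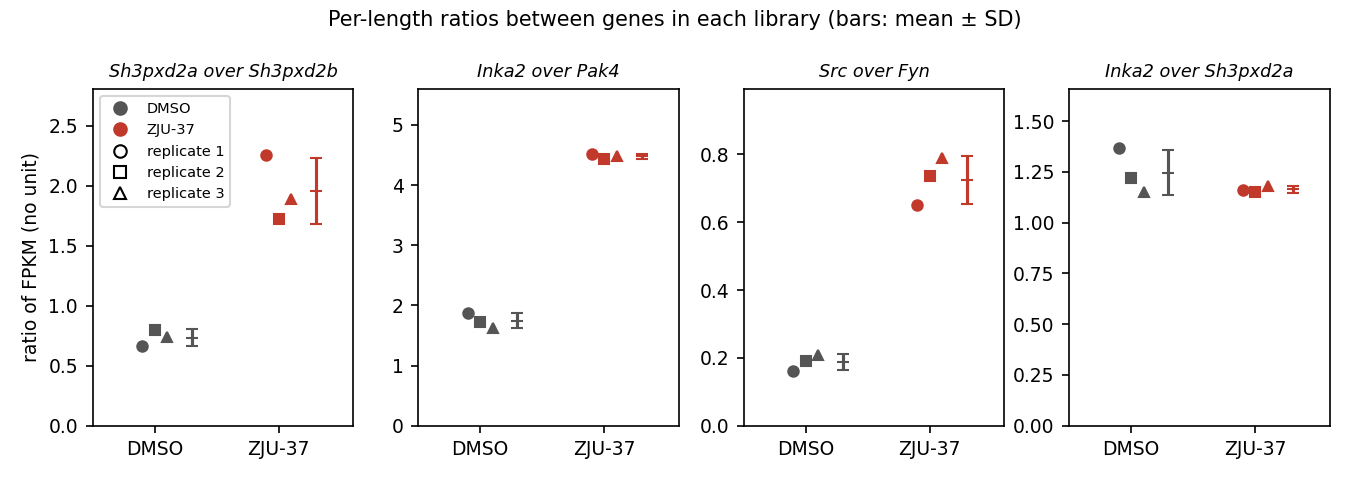
Ratios of FPKM between pairs of genes in each library, on axes that start at 0, with the mean ± SD of 3 libraries beside the points. The ratios of Sh3pxd2a to Sh3pxd2b, Inka2 to Pak4 and Src to Fyn are higher in each ZJU-37 library than in each DMSO library, and the ratio of Inka2 to Sh3pxd2a overlaps between the groups.

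Src, the non-receptor tyrosine kinase that phosphorylates TKS5 and cortactin, has its plus-strand entry at chr3:153580861-153595642. It measured 167, 175 and 179 CPM under DMSO (replicates 1 to 3 in order) against 324, 318 and 340 CPM under ZJU-37. The groups were well separated. Mean levels came to 173 ± 5.99 and 328 ± 11.4 CPM (SD, n = 3 each), a ratio of 1.89 and a log2 change of 0.92 (standard error 0.06), with pair differences of 0.96, 0.87 and 0.93.

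The actin regulators did not share 1 pattern. Wasl, which encodes N-WASP, the activator of Arp2/3, has its minus-strand entry at chr4:51677722-51726212. It measured 72.5, 65.4 and 65.5 CPM under DMSO against 68.9, 64.1 and 66.0 CPM under ZJU-37. The groups overlapped, with a log2 change of -0.03 (standard error 0.07).

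Fscn1, which encodes the actin bundler fascin, has its minus-strand entry at chr12:13656554-13668515 and was the most abundant member per length. It measured 594, 495 and 423 CPM under DMSO against 443, 430 and 367 CPM under ZJU-37. The groups overlapped, since DMSO replicate 3 was below the first and the second ZJU-37 library, yet the ZJU-37 library was the lower one within each pair. The log2 change was -0.29 (standard error 0.14, and 0.06 around -0.28 with the replicate number as a block), and the pairs gave -0.42, -0.20 and -0.21. It was -0.15 without DMSO replicate 1 and -0.18 without ZJU-37 replicate 3.

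Cttn, which encodes cortactin, cannot be read firmly. Its main entry at chr1:217602698-217638152 (minus strand) had 42, 637 and 549 raw counts in DMSO and 1257, 900 and 1783 in ZJU-37 replicates 1, 2 and 3, which is 3.07, 36.0 and 29.1 CPM and 67.9, 43.6 and 73.6 CPM. The ZJU-37 libraries were above the DMSO libraries, but DMSO replicate 1 was far below the other DMSO libraries. The log2 change was 1.43 with a standard error of 0.70, and 0.92 with a standard error of 0.25 without DMSO replicate 1, while the pairs gave 4.42, 0.28 and 1.34. A second entry named Cttn, at chr1:215255381-215290845, had 4, 0 and 1 counts in DMSO and 2, 0 and 0 in ZJU-37 libraries and was not tested. RefSeq lists 1 gene of this name in GRCr8, and reads that match both entries of the table could have been split or left uncounted, so the level of Cttn is uncertain.

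**Figure D3:**
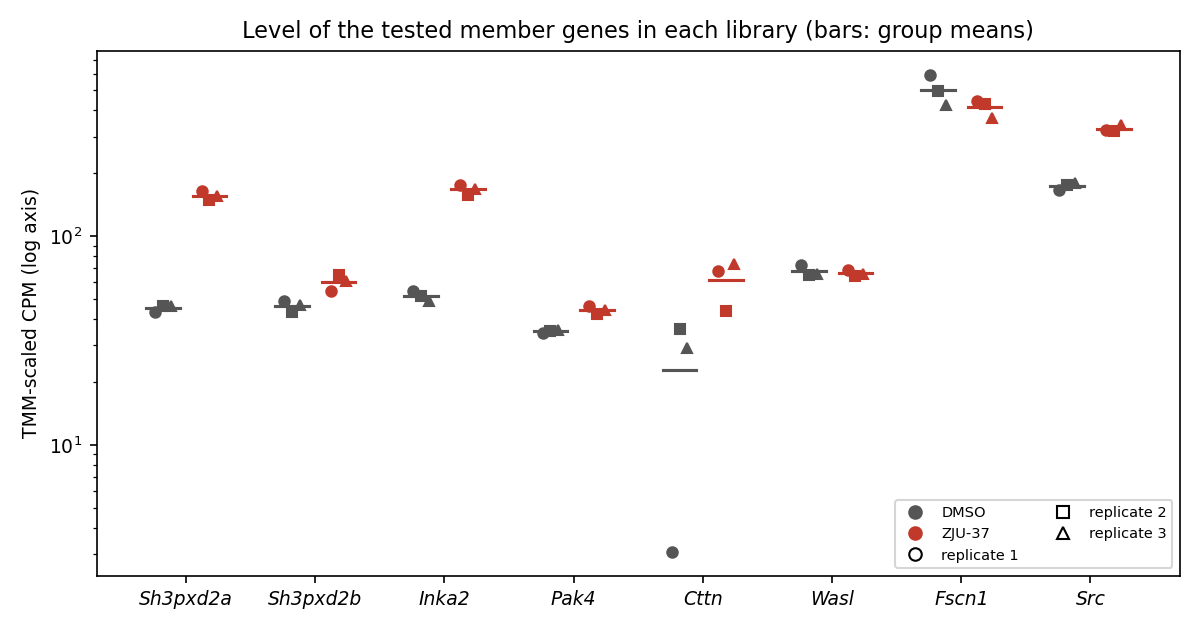
TMM-scaled CPM (log axis) of the 8 tested member entries in the 3 DMSO (grey) and 3 ZJU-37 (red) libraries, with bars at the group means. Sh3pxd2a, Inka2 and Src show wide gaps between the groups, Wasl and Fscn1 overlap, and the DMSO replicate 1 point of Cttn, at 3.07 CPM, stands far below the others.

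Over all 14670 tested genes, edgeR called 9.43% higher and 5.58% lower with ZJU-37 at an adjusted p under 0.05. This was its quasi-likelihood test, adjusted by Benjamini and Hochberg's method over all genes. With the replicate block it called 32.1% in either direction. Calls of the members are not counted, since the treatment difference entered their choice. In 6 of the 8 tested member entries the ZJU-37 libraries were all above the DMSO libraries. The same held in 19.0% of all tested genes, and 35.2% did not overlap in either direction. The median log2 change was 0.65 for the 8 entries and -0.03 for all tested genes. As the members were chosen with this comparison in view, nothing is read from these counts.

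**Figure D4:**
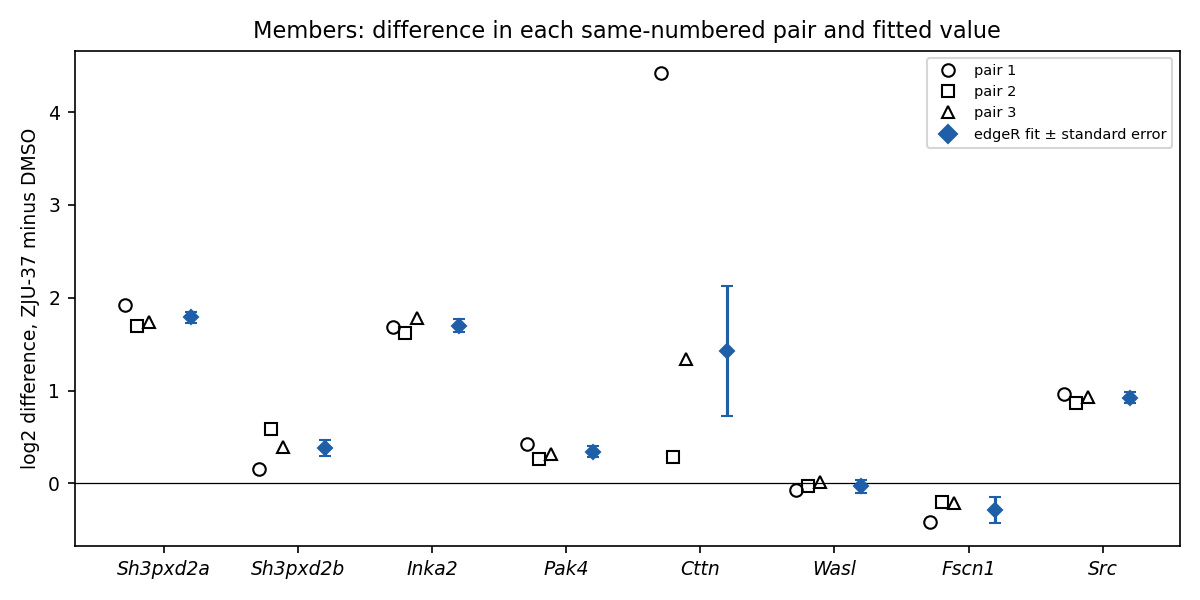
Log2 differences between ZJU-37 and DMSO for the 8 tested member entries, as open symbols for the pairs of replicates 1, 2 and 3 (log2 CPM with a prior count of 2) and as blue diamonds for the edgeR log2 change with its standard error. The pairs of Sh3pxd2a, Inka2 and Src lie close to their fitted values of 1.79, 1.70 and 0.92, whereas those of Cttn run from 0.28 to 4.42.

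The order of the members by level differed between the groups. Per length, Fscn1 led with 339 ± 56.9 FPKM in DMSO and 278 ± 29.6 FPKM in ZJU-37 libraries, followed by Src with 49.1 ± 1.82 FPKM and 92.7 ± 3.01 FPKM (SD, n = 3 each). In DMSO, Sh3pxd2b (16.7 FPKM), Wasl (15.5 FPKM) and Inka2 (15.2 FPKM) came next and overlapped between libraries, Sh3pxd2a (12.2 FPKM) lay below them, and Pak4 (8.71 FPKM) and Cttn (6.51 FPKM) overlapped at the bottom. In ZJU-37 libraries, Inka2 (49.2 FPKM) and Sh3pxd2a (42.2 FPKM) came next without overlap, and Sh3pxd2b (21.7 FPKM), Cttn (17.6 FPKM) and Wasl (15.1 FPKM) followed, with Cttn overlapping both of its neighbours. Pak4 was lowest there with 11.0 FPKM.

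The level of Sh3pxd2a and Inka2 was set beside that of the oligodendrocyte markers, which also separated the groups. Among the DMSO libraries these markers ran from 11447 to 22747 CPM, Sh3pxd2a from 43.4 to 46.2 CPM and Inka2 from 48.8 to 54.6 CPM. DMSO replicate 3 and ZJU-37 replicate 2 had the nearest marker sums across the groups, 11447 and 10037 CPM. They had 46.2 and 149 CPM of Sh3pxd2a and 48.8 and 158 CPM of Inka2. These are single libraries, and they also differed in the astrocyte (1607 and 886 CPM) and microglia sums (3285 and 3710 CPM). The part of cell type content in the member values was not tested.

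Genes with library profiles most like those of Sh3pxd2a and Inka2 were sought among 13891 other genes averaging 1 CPM or more, by the root mean square difference of log2 CPM around each gene's mean over the 6 libraries. The nearest to Sh3pxd2a were LOC103694210 (0.0741), Kcnip3 (0.0744), LOC681355 (0.084), Inka2 (0.0888) and Pou3f1 (0.0893). The nearest to Inka2 were LOC681355 (0.0448), Mmp15 (0.0549), Fam89a (0.0606), Pou3f1 (0.0658) and Kcnip3 (0.066), with Sh3pxd2a at rank 7. Kcnip3, which encodes a calcium-binding partner of potassium channels, had means of 15.6 and 51.1 CPM in DMSO and ZJU-37 libraries, and Pou3f1, a POU homeobox gene that the table classes as a pseudogene, had 5.44 and 18.1 CPM. Mmp15, a membrane-type matrix metalloprotease, was the neighbour with the highest level, at 198 and 636 CPM. Src stood at rank 405 from Sh3pxd2a and at rank 419 from Inka2. These distances follow the treatment difference that entered the choice of both genes and are a description.

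Other genes of the same machinery were then counted in 7 lists that hold none of the members. Of 192 listed symbols, 5 were not found by name, and Nox2 is another name of Cybb, which is also listed. This left 186 genes, of which 174 were tested, and some genes stand in more than 1 list. In edgeR's quasi-likelihood test 18 of the 174 rose and 13 fell at an adjusted p under 0.05, which is 17.8% called against 15.0% of all tested genes, and the median log2 change was -0.08 against -0.03. With the replicate block 26 rose and 50 fell, where 16.2% of all tested genes rose and 15.9% fell. Without DMSO replicate 2 or without DMSO replicate 3, 10 rose. In each of the 31 called genes, which were picked by this same difference, the groups did not overlap. Of all 174 tested genes of the lists, 28 had every ZJU-37 library above and 27 every ZJU-37 library below the DMSO libraries. Of all tested genes, 19.0% lay above and 16.2% below in this way.

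Among the proteases and their partners, 4 of 22 tested genes rose and 0 fell in edgeR (7 and 4 with the block, and 1 lower at an unadjusted p under 0.05, with 0 lower in DESeq2), with a list median of 0.07. Mmp15 measured 224, 191 and 180 CPM under DMSO against 654, 618 and 636 CPM under ZJU-37, with a log2 change of 1.68 (standard error 0.10, adjusted p = 0.00027, edgeR). Adam12, which encodes a metalloprotease that binds TKS5, measured 29.3, 32.4 and 36.0 CPM under DMSO against 82.2, 74.6 and 75.5 CPM under ZJU-37, a log2 change of 1.25 (adjusted p = 0.00043, edgeR). In both genes the groups were wide apart. Mmp16, another membrane-type metalloprotease, rose by 0.99 on the log2 scale (adjusted p = 0.000746, edgeR), and Adam19, also a partner of TKS5, by 0.57 (adjusted p = 0.00857, edgeR). Mmp14, the main membrane-type protease of invadopodia, stood at -0.30 on the log2 scale (adjusted p = 0.603, and 0.0107 with the block, edgeR).

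Among 31 tested actin bundling, formin and Ena/VASP genes, 7 rose and 1 fell in edgeR (9 and 3 with the block), a share of 25.8% called, with a median of 0.04. Diaph3, a formin that extends unbranched filaments, measured 12.4, 14.1 and 12.2 CPM under DMSO against 40.1, 37.9 and 36.0 CPM under ZJU-37, a log2 change of 1.56 (standard error 0.09, adjusted p = 0.000312, edgeR). Myo10, the myosin of filopodial tips, measured 91.3, 83.7 and 96.5 CPM under DMSO against 244, 192 and 217 CPM under ZJU-37, a log2 change of 1.27 (adjusted p = 0.000568, edgeR). The groups of both genes did not overlap. Tpm1, which encodes a tropomyosin, rose by 1.10 on the log2 scale (adjusted p = 0.000312, edgeR), and AABR07021812.1, which RefSeq gives as another name of the formin Fmn2, by 0.85 (adjusted p = 0.0181, edgeR). The formin Fmnl2 fell by 0.71 on the log2 scale (adjusted p = 0.0318, and 0.0695 with the block, edgeR), and without 1 library the call of AABR07021812.1 was lost in 3 of 6 fits (highest adjusted p = 0.0709, without DMSO replicate 3) and that of Fmnl2 in 3 (0.104, without ZJU-37 replicate 3). The paralogs of fascin, Fscn2 and Fscn3, had means of at most 1.29 and 2.00 CPM in either group.

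**Figure D5:**
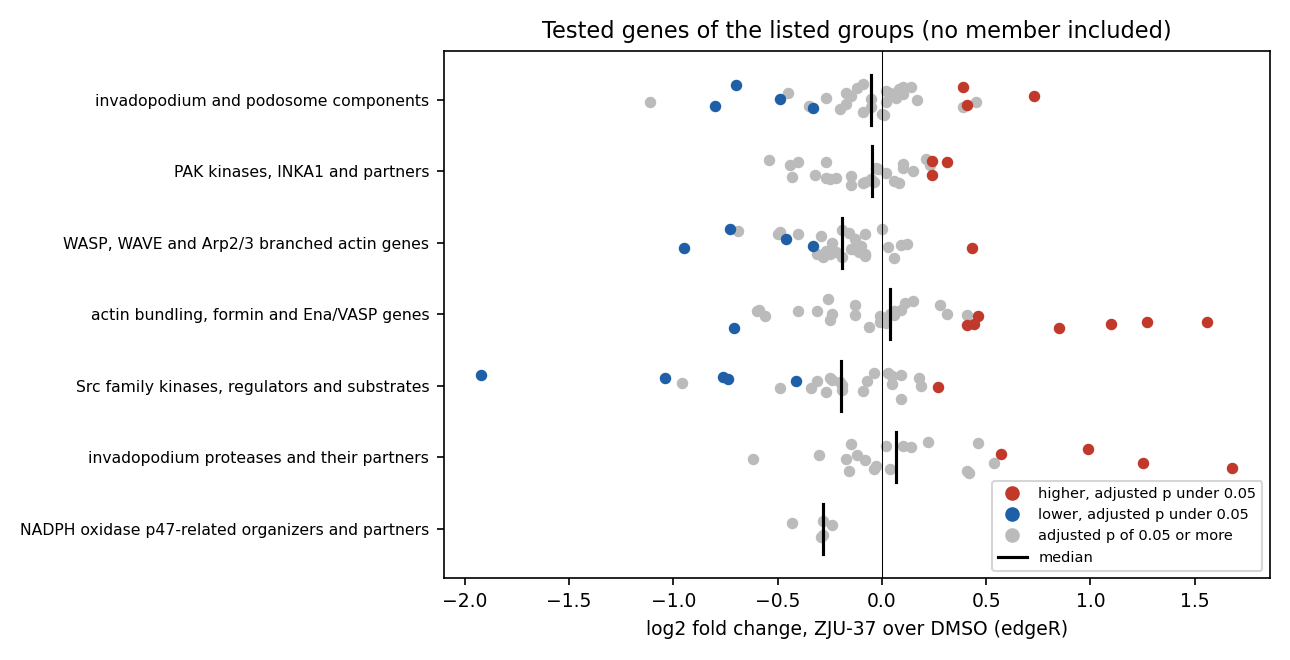
Log2 fold change (ZJU-37 over DMSO, edgeR) of every tested gene of the 7 lists, in red or blue where the adjusted p was under 0.05 and grey otherwise, with black bars at the list medians. The highest red points are Mmp15 at 1.68 and Diaph3 at 1.56, and the lowest blue points are Ptpre at -1.92 and Fyn at -1.04.

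Among Src family kinases, their regulators and substrates, 1 of 26 tested genes rose and 5 fell in edgeR (1 and 11 with the block), a share of 23.1% called, with a median of -0.20. Fyn, the Src family kinase known for its part in myelination, measured 1134, 1002 and 939 CPM under DMSO against 546, 474 and 472 CPM under ZJU-37, a log2 change of -1.04 (standard error 0.10, adjusted p = 0.00102, edgeR). Fyn thus lay lower in every ZJU-37 library while Src lay higher, and per length Src over Fyn went from 0.187 ± 0.0238 with DMSO to 0.725 ± 0.0705 with ZJU-37 (SD, n = 3 each), with Fyn the more abundant in all 6 libraries. The oligodendrocyte markers were also lower in every ZJU-37 library, and their part in the values of Fyn was not tested. Ptpre, a receptor-type tyrosine phosphatase, measured 63.9, 60.1 and 56.1 CPM under DMSO against 10.2, 19.4 and 17.6 CPM under ZJU-37, a log2 change of -1.92 (adjusted p = 0.0026, edgeR). Cav1, which encodes caveolin, fell by 0.76 on the log2 scale (adjusted p = 0.00522, edgeR), and Bcar1, which encodes the Src substrate p130Cas, by 0.74 (adjusted p = 0.00166, edgeR). The related adaptor gene Efs fell by 0.41 (adjusted p = 0.0223, edgeR), and Ptk2, the gene of focal adhesion kinase, rose by 0.27 on the log2 scale (adjusted p = 0.0185, edgeR). Without 1 library the call of Efs held in 2 of 6 fits (highest adjusted p = 0.107, without ZJU-37 replicate 3, edgeR) and that of Ptk2 in 3 (0.0713, without DMSO replicate 3). The kinases Yes1 and Lyn had log2 changes of 0.18 and -0.19 with adjusted p-values of 0.316 and 0.745 in edgeR.

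Among 33 tested WASP, WAVE and Arp2/3 genes, 1 rose and 4 fell in edgeR (1 and 13 with the block), a share of 15.2% called, with a median of -0.19. The 4 that fell and the 1 that rose do not include a subunit of Arp2/3, whereas with the block the subunit genes Arpc1b (adjusted p = 0.0468, edgeR) and Arpc4 (0.0227) fell, from 0.586 and 0.447 without it. Cyfip2, a subunit of the WAVE complex, measured 814, 783 and 685 CPM under DMSO against 457, 361 and 362 CPM under ZJU-37, a log2 change of -0.95 (standard error 0.12, adjusted p = 0.00281, edgeR). Wasf1, which encodes WAVE1, fell by 0.73 on the log2 scale (adjusted p = 0.0136, edgeR) and Abi1, another WAVE complex gene, by 0.46 (adjusted p = 0.00993, edgeR), whereas its paralog Abi2 rose by 0.43 (adjusted p = 0.0228, edgeR). Wipf1, which encodes a WASP-binding protein, fell by 0.33 (adjusted p = 0.0464, edgeR). When each library was left out in turn, Wasf1 passed in 3 of 6 fits (highest adjusted p = 0.0609, without ZJU-37 replicate 3, edgeR), Abi2 in 4 (0.0919, without DMSO replicate 2) and Wipf1 in 1 (0.167, without ZJU-37 replicate 3). Was and Hcls1, the blood cell paralogs of Wasl and Cttn, had 32.9 ± 7.80 and 176 ± 40.2 CPM in DMSO and 27.9 ± 9.10 and 143 ± 55.3 CPM in ZJU-37 libraries (SD, n = 3 each). In these genes, as in the microglia markers, replicate 1 was the lowest library of either group.

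Among the 33 tested genes on the list of further components of invadopodia and podosomes, 3 rose and 4 fell in edgeR (4 and 8 with the block), a share of 21.2% called, with a median of -0.05. Nck2, an adaptor that links phosphorylated TKS5 to N-WASP, measured 33.5, 24.4 and 31.6 CPM under DMSO against 52.2, 44.9 and 51.0 CPM under ZJU-37, a log2 change of 0.73 (standard error 0.13, adjusted p = 0.0118, edgeR). Enah, of the Ena/VASP family, rose by 0.41 on the log2 scale (adjusted p = 0.0478, edgeR). Arhgap35, which encodes a GTPase-activating protein, measured 792, 720 and 695 CPM under DMSO against 478, 372 and 416 CPM under ZJU-37, a log2 change of -0.80 (adjusted p = 0.00371, edgeR). Inppl1, which encodes a lipid phosphatase, fell by 0.70 on the log2 scale (adjusted p = 0.00471, edgeR) and Afap1, an actin and Src binding protein, by 0.49 (adjusted p = 0.0145, edgeR). The call of Enah held in 2 of the 6 fits that leave out 1 library (highest adjusted p = 0.152, without DMSO replicate 2).

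Among 28 tested PAK kinases and partners, 3 rose and 0 fell in edgeR (5 and 8 with the block, and 3 lower at an unadjusted p under 0.05, with 1 lower in DESeq2), a share of 10.7% called, with a median of -0.04. Limk1, a kinase that PAKs activate and that inactivates cofilin, rose by 0.31 on the log2 scale (adjusted p = 0.0272, edgeR), and Ctnnd1 and Pak1 rose by 0.24 each (adjusted p = 0.0308 and 0.0475, edgeR). When each library was left out in turn, Limk1 passed in 2 of 6 fits (highest adjusted p = 0.0927, without ZJU-37 replicate 3, edgeR), Ctnnd1 in 1 (0.105, without DMSO replicate 3) and Pak1 in 0 (0.149, without DMSO replicate 2). With all 6 libraries, Pak1 also missed the threshold under RLE scaling (adjusted p = 0.0619, edgeR), library size only (0.0577), no filter (0.0617), DESeq2 (0.0717), limma-voom (0.0522) and both limma fits on FPKM (0.0741 and 0.0742), and passed in 2 of 15 alternatives. Of the other PAKs, Pak2, Pak3, Pak6 and Pak7 (the table's name for Pak5) had log2 changes of -0.15, -0.40, -0.44 and -0.32 with adjusted p-values of 0.917, 0.084, 0.286 and 0.357 in edgeR, and Pak3, Pak6 and Pak7 passed with the block. Pak2 measured 30.9, 2.88 and 21.5 CPM under DMSO against 13.7, 15.4 and 20.3 CPM under ZJU-37, with the second DMSO library far below the others. Inka1, the paralog of Inka2, had 4, 18 and 9 counts in DMSO and 11, 4 and 7 counts in ZJU-37 libraries and was not tested. Per length its mean was 0.516 FPKM in DMSO and 0.311 FPKM in ZJU-37 libraries, far below that of Inka2.

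Of the NADPH oxidase genes, which include Ncf1, a relative of the TKS scaffolds by its PX and SH3 domains, 5 were tested and 0 were called in edgeR at an adjusted p under 0.05, 0 had an unadjusted p under 0.05, and DESeq2 and limma-voom also called 0. With the block 4 fell. Ncf1 measured 619, 1023 and 962 CPM under DMSO against 463, 900 and 785 CPM under ZJU-37, overlapping between the groups. The microglia markers, which were lowest in the same libraries, had 0 of 12 called in edgeR (0 at an unadjusted p under 0.05, 0 in DESeq2) and 5 lower with the block, and their part in the NADPH oxidase and other listed values was not tested.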

How the data were processed

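Poly-A RNA of rat OPCs was made into 6 libraries (3 DMSO, 3 ZJU-37) and sequenced by the authors. Per the methods and the submitters' processing notes, reads were aligned with HISAT2 2.0.5, StringTie 1.3.3b is named, and reads were counted per gene with featureCounts 1.5.0, while the genome build is not given in the sources used here. The deposited table holds raw counts and FPKM values per library, computed by the authors, and the authors' own comparison (group means, fold changes and p-values), which was not used. Whether counting used strand is not given, so a gene that overlaps another on the opposite strand may share its reads.

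Genes were kept by edgeR's filterByExpr (14670 of 32883), scaled by TMM and tested with the robust quasi-likelihood test of edgeR 4.0.16 (R 4.3.3, limma 3.58.1), with Benjamini-Hochberg adjustment over all tested genes and a threshold of 0.05. The log2 CPM values used a prior count of 2. Library totals were 13935865 to 24097927 counts, so that 3 counts equal 0.1245 to 0.2153 CPM. Replicates with the same number deviated together (r = 0.394, 0.312 and 0.329 across 14670 genes, which are not independent, against -0.271 to -0.0116 for unlike numbers). A fit with the number as a block is given beside the counts of lists and markers and for some single genes. No pair of libraries within a group agreed within counting noise (chi-square per degree of freedom at least 11.9). Pairs across the groups were not compared. Alternatives were RLE scaling, library size only, 2 other filters, the block, limma-voom, DESeq2 1.42.0, limma on FPKM with a pseudocount of 1 or of 0.1 before taking log2, and leaving out each library. The test was also run on simulated counts, and no result given here rests on that run. Promoters came from RefSeq (GRCr8).

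The members and lists were chosen with earlier results of these data known. The named genes were the members, up to 4 called genes per list with the largest absolute log2 fold change and a mean of at least 1 CPM, the members' direct paralogs, and the 5 nearest profiles to Sh3pxd2a and to Inka2. Enah, Wipf1, Fmnl2, Ptk2, Efs, Mmp14, Arpc1b and Arpc4 were named after their values were seen. Other listed genes that passed are counted and not named. Of the listed symbols, 4 were matched under another name in RefSeq and 5 were not found.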

Additional observations from a re-analysis of the deposited data

How the results depend on the processing

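Across 15 alternatives no log2 change switched sign among the members other than Wasl. The same held for the 23 listed genes named by the size of their change. Sh3pxd2a ran from 1.71 (limma on log2(FPKM + 1)) to 1.85 on the log2 scale, Inka2 from 1.63 to 1.77, Src from 0.89 to 0.97, Sh3pxd2b from 0.33 to 0.47, Pak4 from 0.30 to 0.40 (0.32 to 0.40 when 1 library was left out, the highest without ZJU-37 replicate 2), Cttn from 0.92 to 1.97, Fscn1 from -0.40 to -0.15 and Wasl from -0.06 to 0.02. The replicate block raised the count of lower listed genes from 13 to 50 and of higher ones from 18 to 26, and over all genes the calls from 2201 to 4705. Leaving out 1 library gave 10 to 18 higher listed genes, with 10 without DMSO replicate 2 or DMSO replicate 3, and 9 to 13 lower ones. Of these 23 listed genes, 17 passed in every alternative and all 23 passed with the block. Enah, Wipf1, Fmnl2, Efs and Ptk2, named after their values were seen, are not among the 23. They passed in 2, 1, 3, 2 and 3 of the 6 fits that leave out 1 library. Fmnl2 also missed the threshold with the block (adjusted p = 0.0695, edgeR). With 3 libraries a group, all fits, with every library or without 1, assume that the libraries of both groups vary alike. Genes with few counts, such as Inka1 and the second Cttn entry, could not be tested at this depth. The cause of these changes was not tested.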
